A study of Mus musculus with 12 samples.

Results

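The 6 actin genes of the mouse, Actb, Actg1, Acta2, Actg2, Acta1 and Actc1, were followed in RNA-seq libraries of bone marrow stromal cells (labelled as mesenchymal stem cells, BMSCs). They were taken by symbol from a deposited table of 23358 gene rows, and all 6 were found once each. The cells had been treated for 24 h with CK666 and cytochalasin D together (CytoD+CK), with CK666 alone (CK) or with cytochalasin D alone (CytoD). Control cells (Ctrl) were given neither compound, and no treatment time is listed for them. In each group 3 libraries were analysed. All groups shared the medium, which held 10% fetal bovine serum, and were plated 1 day before treatment. Cytochalasin D is a fungal compound that caps the fast-growing ends of actin filaments. CK666 inhibits the Arp2/3 complex, which starts new filaments as branches on existing ones. The sources used here do not state the concentrations, the mouse strain or the age, nor whether replicates came from separate animals or cultures. The p-values therefore rest on library-to-library spread that could be technical.

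Actin is the globular protein that assembles into filaments. Actb and Actg1 encode the β and γ cytoplasmic actins found in nearly all cells. Acta2 and Actg2 encode the α and γ smooth muscle actins, of which the α form also marks stress fibres of contractile stromal cells and myofibroblasts. Acta1 and Actc1 encode the skeletal and cardiac muscle α-actins. Actin genes are among the best known targets of serum response factor (SRF), whose coactivator MRTF is held inactive by free actin monomers and is released as monomers are used up. SRF binds a DNA element called the CArG box. In fibroblast lines, cytochalasin D is known to free MRTF from actin monomers.

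The coding sequences are alike, and reads of one member could be counted for another gene, so the first 60 coding bases are shown for each gene (GENCODE M21 annotation on GRCm38, 5′ to 3′). Capitals mark bases that differ from the gene's partner, or have no counterpart in it, within the pairs Actb with Actg1, Acta2 with Actg2 and Acta1 with Actc1.
Actb: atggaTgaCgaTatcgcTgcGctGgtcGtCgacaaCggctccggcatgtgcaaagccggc
Actg1: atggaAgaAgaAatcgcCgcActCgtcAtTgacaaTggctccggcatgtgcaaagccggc
Acta2: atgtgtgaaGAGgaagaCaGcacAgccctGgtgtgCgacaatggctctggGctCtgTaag
Actg2: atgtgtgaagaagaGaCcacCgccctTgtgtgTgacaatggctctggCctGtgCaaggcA
Acta1: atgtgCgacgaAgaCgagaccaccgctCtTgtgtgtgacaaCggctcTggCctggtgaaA
Actc1: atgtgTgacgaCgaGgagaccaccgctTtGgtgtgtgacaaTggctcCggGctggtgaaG

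Over the whole coding sequence, Actb and Actg1 were 88.6% identical, with 128 differing bases and a longest identical run of 62 bases. Identity was 84.2% between Acta2 and Actg2 and 86.3% between Acta1 and Actc1, and across all pairs it lay between 81.5% and 88.6%. Of all 50-base windows of a member's transcript, 0% to 2.57% occurred in another member, and no 100-base window did. For Actg2 and Actc1 no 50-base window occurred in any other gene, and for Acta2 0.353% did, none of them in Actg2. Most of the shared sequence belonged to the cytoplasmic genes: 56.7% of the 50-base windows of Actg1 and 14.2% of those of Actb occurred in transcripts of other annotated genes. Outside the family these were 19 genes for Actg1, 12 of them pseudogenes, and 16 for Actb, 15 of them pseudogenes. Among them only Lrrc58 was found by symbol in the deposited gene rows. At 100 bases the shares of windows in other genes were 51.1% for Actg1, with no such gene in the deposited rows, and 1.1% for Actb. The sources used here do not state the read length, and how reads with several matches were assigned was not tested. The rows of each pair were also summed and refitted, which does not address sequence shared with genes outside the family.

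The rows lie on 6 chromosomes. They are Actb at chr5:142903116-142906724, Actg1 at chr11:120345690-120348484, Acta2 at chr19:34241091-34255336, Actg2 at chr6:83512909-83536251, Acta1 at chr8:123891767-123894736 and Actc1 at chr2:114047289-114052811, all on the minus strand. These coordinates match GRCm38, although the submitters' processing notes name the human build hg19. The Acta2 row overlaps that of the small RNA Snora19, and the Actc1 row that of the microRNA Mir3110.

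Gene counts summed to between 48930210 and 69269716 per library, and the 6 actin rows together took 0.384% to 0.438% of them in CytoD+CK, 0.420% to 0.513% in CK, 0.523% to 0.535% in CytoD and 0.952% to 1.02% in Ctrl. CK replicate 3 stood apart: its median absolute log2 difference was 0.289 from CK replicate 1 and 0.276 from CK replicate 2, against 0.126 between these 2. Its actin levels were the highest of the CK group for every member but Actc1. Without it the CK falls described below were larger for all 6 members. Markers of marrow stroma summed to 11906 to 12596 CPM (counts scaled to a common total) in CytoD+CK, 13059 to 14163 CPM in CK, 28445 to 30290 CPM in CytoD and 22978 to 25245 CPM in Ctrl. This sum hides members that moved in opposite directions: in CytoD against Ctrl, 4 of 9 tested were called higher and 3 lower. Mean Cxcl12 was 18052 CPM in CytoD and 8331 CPM in Ctrl, while Col1a2 was 6760 CPM in CytoD and 9224 CPM in Ctrl. Thy1, Nt5e, Lepr and Eng had means of at most 2.30 CPM in every group. Markers of macrophages, endothelium and blood summed to at most 8.98 CPM for any list in any library. None of 11 skeletal muscle markers passed the filter on low counts, and their sum reached at most 0.197 CPM; 1 of 8 cardiac markers passed, with a sum of at most 0.758 CPM. The 8 adipocyte markers moved against the actin genes: their summed level was 2261 to 3178 CPM in CytoD+CK, 1442 to 2403 CPM in CK, 621 to 636 CPM in CytoD and 215 to 235 CPM in Ctrl. All 8 were called higher than Ctrl in each treated group, and the part of the adipocyte and stromal markers in the actin results was not tested. In these bulk libraries, fewer cells of a type and less RNA per cell cannot be told apart.

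The mean levels of all 6 genes were lower than in Ctrl in every treated group. Levels are given as RPKM, here counts per kilobase of the table's length column per 1e+06 counts after TMM scaling, with the SD over n = 3 libraries. A gene was called where edgeR's quasi-likelihood test, fitted to 13534 genes over all 12 libraries, gave a Benjamini-Hochberg adjusted p under 0.05. In Ctrl the order of levels was Actg1 (2183 ± 125 RPKM), Acta2 (1709 ± 38.9 RPKM), Actb (1524 ± 105 RPKM), Actg2 (317 ± 16.8 RPKM), Acta1 (6.71 ± 1.06 RPKM) and Actc1 (0.564 ± 0.486 RPKM). The RPKM of Acta2 and Actb, neighbours in this order, did not overlap between libraries. Their order rests on the length column, which gives 1780 bases for Acta2 and 1889 for Actb. The GENCODE transcripts used above have 2035 and 1920 bases. Without division by length the levels overlapped: Ctrl replicate 1 had 3066 CPM for Actb and 3005 CPM for Acta2. Per length, Actg1 was the 14th, Acta2 the 17th and Actb the 21st most abundant of the 13534 genes in Ctrl, against 196th for Actg2, 7165th for Acta1 and 11218th for Actc1. Acta2 lost its place among these, ranking 304th in CytoD+CK, 160th in CK and 193rd in CytoD. Actg1 stayed within the first 40 in every group.

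**Figure D1:**
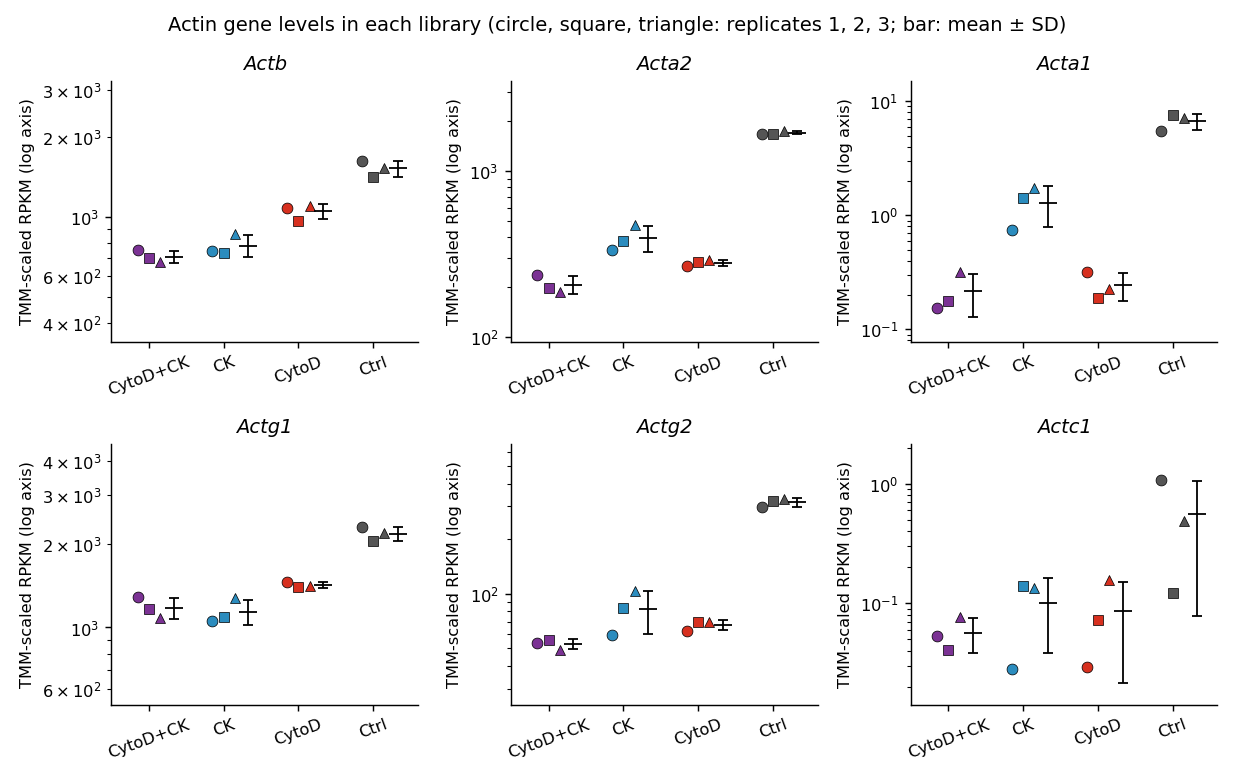
Level of each actin gene in every library, as TMM-scaled RPKM on log axes whose ranges differ between panels. Circles, squares and triangles are replicates 1, 2 and 3, and bars show the mean and SD (n = 3) of CytoD+CK, CK, CytoD and Ctrl; in 5 panels all 9 treated libraries lie below all Ctrl libraries, and in the Actc1 panel the ranges of CK and CytoD overlap that of Ctrl.

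The smooth muscle actins fell the most among the abundant members. Acta2 had 236, 197 and 185 RPKM in CytoD+CK replicates 1, 2 and 3, 334, 376 and 470 RPKM in CK, 267, 282 and 289 RPKM in CytoD, and 1688, 1685 and 1754 RPKM in Ctrl. The 8 markers of smooth muscle and pericytes, all measured, summed to 532 to 628 CPM in CytoD+CK, 571 to 647 CPM in CK, 864 to 928 CPM in CytoD and 939 to 974 CPM in Ctrl. In Ctrl the largest parts of this sum were Pdgfrb (709 CPM) and Notch3 (174 CPM). Myh11, Rgs5, Cspg4 and Mcam each averaged at most 0.941 CPM there. Members moved both ways: against Ctrl, 1 was called higher and 2 lower in CytoD+CK, 1 and 4 in CK, and 1 and 1 in CytoD. The part of these markers in the result was not tested. For Acta2 the lowest Ctrl library was above 3 times the highest treated one, and no treated group overlapped Ctrl. The log2 fold change against Ctrl was -3.05 ± 0.12 (SE) in CytoD+CK, -2.12 ± 0.12 in CK and -2.61 ± 0.12 in CytoD, or 8.29-fold, 4.34-fold and 6.11-fold lower. The adjusted p was 4.6e-09 in CytoD+CK, 6.2e-08 in CK and 6.2e-08 in CytoD. These comparisons share the Ctrl libraries.

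Actg2 was lower than Acta2 in every library, at 0.177 to 0.282 of its RPKM. It had 53.8, 55.6 and 49.2 RPKM in CytoD+CK, 59.3, 83.0 and 103 RPKM in CK, 62.6, 70.04 and 70.07 RPKM in CytoD, and 298, 320 and 331 RPKM in Ctrl. No treated group overlapped Ctrl, and the CK libraries spread the most. The log2 fold change against Ctrl was -2.58 ± 0.16 in CytoD+CK (adjusted p = 5.2e-08), -1.95 ± 0.15 in CK (adjusted p = 8.2e-07) and -2.23 ± 0.15 in CytoD (adjusted p = 7.6e-07). Summing the Acta2 and Actg2 rows gave changes of -2.99 ± 0.12 (SE) in CytoD+CK, -2.10 ± 0.12 in CK and -2.56 ± 0.12 in CytoD.

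The cytoplasmic actins fell by less. Actb, often used to normalise expression between samples, had 750, 705 and 679 RPKM in CytoD+CK, 745, 733 and 867 RPKM in CK, 1084, 971 and 1099 RPKM in CytoD, and 1623, 1414 and 1534 RPKM in Ctrl. CytoD+CK and CK lay together at the lowest levels, with CytoD between them and Ctrl. The log2 fold change against Ctrl was -1.10 ± 0.09 in CytoD+CK (adjusted p = 4.0e-07), -0.96 ± 0.08 in CK (adjusted p = 2.3e-06) and -0.54 ± 0.08 in CytoD (adjusted p = 0.00032).

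Actg1 was the most abundant member per length in every library. It had 1286, 1161 and 1085 RPKM in CytoD+CK, 1052, 1091 and 1273 RPKM in CK, 1462, 1396 and 1417 RPKM in CytoD, and 2306, 2056 and 2187 RPKM in Ctrl. As for Actb, the highest treated library was below the lowest Ctrl library. The log2 fold change against Ctrl was -0.89 ± 0.09 in CytoD+CK (adjusted p = 2.9e-06), -0.94 ± 0.09 in CK (adjusted p = 3.4e-06) and -0.62 ± 0.09 in CytoD (adjusted p = 0.00013). The summed Actb and Actg1 rows changed by -0.97 ± 0.09 (SE) in CytoD+CK, -0.95 ± 0.09 in CK and -0.58 ± 0.08 in CytoD.

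The striated muscle actins were expressed at a small fraction of these levels. Acta1 counts were 12, 18 and 26 in CytoD+CK, 54, 104 and 158 in CK, 22, 16 and 18 in CytoD, and 388, 510 and 540 in Ctrl. Its level averaged 0.217 ± 0.0897 RPKM in CytoD+CK, 1.29 ± 0.501 RPKM in CK, 0.243 ± 0.0657 RPKM in CytoD and 6.71 ± 1.06 RPKM in Ctrl. It lay near the bottom of the tested range in both CytoD groups and kept an intermediate level in CK, with no overlap between any treated group and Ctrl. The fall against Ctrl was 30.8-fold in CytoD+CK (log2 -4.95 ± 0.33, adjusted p = 1.2e-07), 5.15-fold in CK (log2 -2.37 ± 0.27, adjusted p = 2.1e-05) and 27.7-fold in CytoD (log2 -4.79 ± 0.33, adjusted p = 7.6e-07).

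Actc1 was close to the limit of detection. Its counts were 4, 4 and 6 in CytoD+CK, 2, 10 and 12 in CK, 2, 6 and 12 in CytoD, and 74, 8 and 36 in Ctrl. Ctrl replicate 2 lay inside the range of both CK and CytoD, and below it were all 3 CytoD+CK libraries. The log2 fold change against Ctrl was -3.30 ± 0.77 in CytoD+CK (adjusted p = 0.0035), -2.44 ± 0.71 in CK (adjusted p = 0.015) and -2.67 ± 0.73 in CytoD (adjusted p = 0.012). Without Ctrl replicate 1 the calls were lost in CK (-1.60, adjusted p = 0.10) and CytoD (-1.82, adjusted p = 0.075), and without CK replicate 1 the CK change was -2.03 (adjusted p = 0.0501). With the compared groups alone in the fit, the adjusted p in CK was 0.051. By counting error alone, a count of 0 would allow up to 3 counts, and Actc1 had at most 6 counts in 6 of the 9 treated libraries. All deposited counts were even. If 2 counts stand for a single fragment, the floor of 3 applies to fragments and is higher in deposited counts. These 6 libraries may then lie at or below it.

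Set against the whole table, 6 of 6 members were called lower in CytoD+CK against Ctrl, where 46% of tested genes were called in either direction, 24.4% higher and 21.6% lower. The count was also 6 of 6 in CK, where 41.1% were called, 22.5% higher and 18.7% lower, and in CytoD, where 37.9% were called, 19.1% higher and 18.9% lower. The groups did not overlap for 6 members in CytoD+CK, against 29.2% of all tested genes lower without overlap, for 5 in CK, against 23.4%, and for 5 in CytoD, against 30.3%. Actc1 stood near the filter on low counts, which it passed through its higher libraries. The 6 rows summed came to 2148 ± 165 RPKM in CytoD+CK, 2397 ± 279 RPKM in CK, 2824 ± 90.4 RPKM in CytoD and 5740 ± 228 RPKM in Ctrl. In the fit, their sum of counts was 2.61-fold lower than Ctrl in CytoD+CK, 2.36-fold in CK and 1.99-fold in CytoD.

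**Figure D2:**
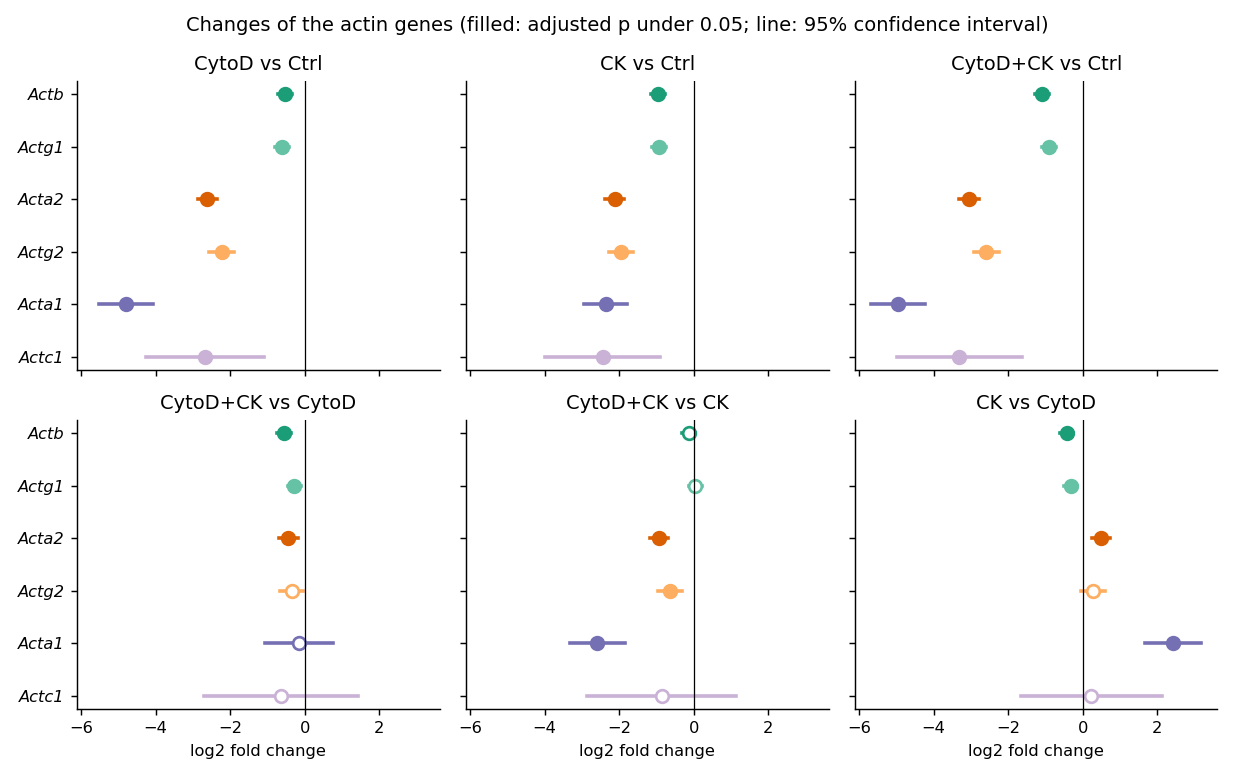
Log2 fold change of each actin gene in 6 comparisons between groups, with the 95% confidence interval as a line. Filled circles have an edgeR adjusted p under 0.05. Against Ctrl all 6 genes are left of 0 in all 3 treated groups, while between CK and CytoD the cytoplasmic genes lie left of 0 and Acta2 and Acta1 right of it.

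CK and CytoD were then compared with each other. Acta1 was 5.39-fold higher in CK than in CytoD (log2 2.43 ± 0.35, adjusted p = 0.00018), and Acta2 was 1.41-fold higher (log2 0.49 ± 0.11, adjusted p = 0.0046). The cytoplasmic genes went the other way: Actb was 1.34-fold lower in CK than in CytoD (log2 -0.43 ± 0.08, adjusted p = 0.0017) and Actg1 1.25-fold lower (log2 -0.32 ± 0.09, adjusted p = 0.010). None of these 4 genes overlapped between the groups, as for 49.8% of all tested genes. In this comparison 39.8% of tested genes were called, 22.9% higher and 16.8% lower in CK. Actg2 gave 0.27 ± 0.15 (adjusted p = 0.16, 95% interval -0.04 to 0.59), which became 0.46 without CK replicate 1 (adjusted p = 0.0036) and 0.04 without CK replicate 3 (adjusted p = 0.80). Actc1 gave 0.23 ± 0.87 (adjusted p = 0.85). The level of Acta2 in CK also rested partly on replicate 3, without which its difference from CytoD was 0.31 (adjusted p = 0.011).

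Adding CK666 to cytochalasin D moved Actb the most clearly. In CytoD+CK against CytoD, Actb was 1.48-fold lower (log2 -0.56 ± 0.08, adjusted p = 0.00030) and Acta2 1.36-fold lower (log2 -0.44 ± 0.11, adjusted p = 0.011). Actg1 was 1.21-fold lower (log2 -0.28 ± 0.09, adjusted p = 0.028). The Acta2 call was lost without CytoD+CK replicate 3 (-0.37, adjusted p = 0.056). The Actg1 call was lost without CytoD+CK replicate 2 (adjusted p = 0.089) or 3 (adjusted p = 0.11) and without CytoD replicate 1 (adjusted p = 0.089), 2 (adjusted p = 0.057) or 3 (adjusted p = 0.069). Actg2 gave -0.35 ± 0.15 (adjusted p = 0.088), and it passed the test with DESeq2 (adjusted p = 0.043), with the compared groups alone (adjusted p = 0.0014), without CK replicate 1 (adjusted p = 0.011) and without CK replicate 3 (adjusted p = 0.010). Acta1 gave -0.15 ± 0.43 (adjusted p = 0.83, 95% interval -1.07 to 0.77) and Actc1 -0.63 ± 0.95 (adjusted p = 0.66), and both changed sign when certain libraries were left out: Acta1 was 0.065 without CytoD replicate 1 and 0.021 without CytoD+CK replicate 1, and Actc1 was 0.083 without CytoD replicate 3. Here 30.1% of all tested genes were called, 14.3% lower.

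Cytochalasin D was also compared in the presence of CK666. In CytoD+CK against CK, Acta1 was 5.99-fold lower (log2 -2.58 ± 0.34, adjusted p = 0.00039), Acta2 1.91-fold lower (log2 -0.93 ± 0.11, adjusted p = 0.00020) and Actg2 1.55-fold lower (log2 -0.63 ± 0.15, adjusted p = 0.016). The Actg2 call was lost with the compared groups alone (adjusted p = 0.11) and without CytoD+CK replicate 3 (adjusted p = 0.080), and its change was -0.41 without CK replicate 3 (adjusted p = 0.026). The cytoplasmic genes were not called: Actb gave -0.14 ± 0.08 (adjusted p = 0.30, 95% interval -0.32 to 0.05) and Actg1 0.05 ± 0.09 (adjusted p = 0.74, 95% interval -0.14 to 0.23). The sign of the Actg1 value turned without CK replicate 1 (-0.0065) or CytoD+CK replicate 1 (-0.020), and in the sum with Actb (-0.024). Actc1 gave -0.86 ± 0.93 (adjusted p = 0.57). In this comparison 11.6% of tested genes were called, 7.17% lower.

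The combined treatment lowered 5 members by less than the sum of the separate log2 changes. This was tested as an interaction, the cytochalasin D effect among cells given CK666 minus the same effect among cells without it, which is positive where the effect was less negative with CK666. For Acta2 the effect of cytochalasin D was -0.93 with CK666 and -2.61 without it, a difference of 1.68 ± 0.16 (adjusted p = 7.6e-05). The difference was 1.60 ± 0.21 for Actg2 (adjusted p = 0.00054) and 0.66 ± 0.12 for Actg1 (adjusted p = 0.0038). For Acta1 it was 2.21 ± 0.51 (adjusted p = 0.013), and without CytoD+CK replicate 3 it was 1.85 (adjusted p = 0.052). For Actb it was 0.40 ± 0.12 (adjusted p = 0.041), a call that was lost when any 1 of 10 of the 12 libraries was left out (adjusted p at most 0.11) and kept without CK replicate 3 or CytoD+CK replicate 3. Actc1 gave 1.81 ± 1.24 (adjusted p = 0.37). For this term 14.3% of all tested genes were called, 6.63% with a positive value. Acta1 ranked 12133rd in CytoD+CK, 10391st in CK and 12176th in CytoD of the 13534 genes by level per length. Its counts were 12, 18 and 26 in CytoD+CK and 22, 16 and 18 in CytoD. The part of these low counts in its interaction value was not tested.

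The make-up of total actin transcripts changed with the treatments. The smooth muscle genes Acta2 and Actg2 together made up 12.04% ± 0.365 of the summed actin RPKM in CytoD+CK, 19.7% ± 1.60 in CK, 12.3% ± 0.763 in CytoD and 35.3% ± 1.58 in Ctrl. Acta2 alone held 9.57% ± 0.483 in CytoD+CK, 16.3% ± 1.03 in CK, 9.91% ± 0.561 in CytoD and 29.8% ± 1.15 in Ctrl. Every treated library lay below every Ctrl library, and every CK library above every library of the 2 CytoD groups. Actg1 held 54.8% ± 0.507 in CytoD+CK, 47.5% ± 0.588 in CK, 50.5% ± 1.08 in CytoD and 38.0% ± 0.797 in Ctrl. Actb held 33.2% ± 0.857 in CytoD+CK, 32.7% ± 1.15 in CK, 37.2% ± 1.33 in CytoD and 26.5% ± 0.819 in Ctrl. A share can rise while the gene's own level falls, as it did for both cytoplasmic genes. With 3 libraries against 3, an exact two-sided permutation test cannot give a p below 0.1, so the shares are given without one.

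**Figure D3:**
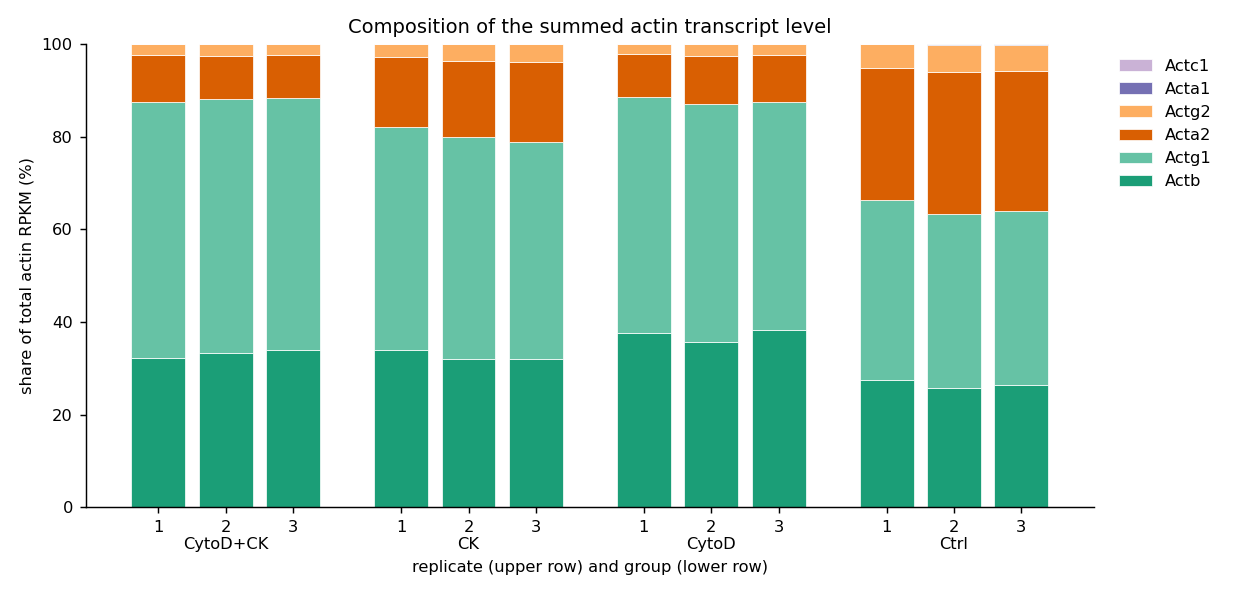
Share of each actin gene in the summed RPKM of the 6 genes, in percent, with 1 bar per library ordered by group. The smooth muscle genes (orange) fill 33.5% to 36.6% of the Ctrl bars and 11.5% to 21.1% of the treated bars, and Acta1 and Actc1 are too low to be seen.

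Ratios within a library leave out its scaling. Acta2 over Actb was 0.289 ± 0.0219 in CytoD+CK, 0.501 ± 0.0477 in CK, 0.267 ± 0.0224 in CytoD and 1.13 ± 0.0773 in Ctrl, with no treated library above 0.542 and no Ctrl library under 1.04. Actb over Actg1 was 0.605 ± 0.0212 in CytoD+CK, 0.687 ± 0.0188 in CK, 0.738 ± 0.0403 in CytoD and 0.698 ± 0.00874 in Ctrl. Its 3 CytoD+CK values, 0.584 to 0.626, lay under all other libraries, while CK and CytoD overlapped Ctrl. Actg2 over Acta2 was 0.259 ± 0.0273 in CytoD+CK, 0.206 ± 0.0246 in CK, 0.242 ± 0.00681 in CytoD and 0.185 ± 0.00746 in Ctrl. Both CytoD groups lay above Ctrl for this ratio, and CK overlapped it.

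**Figure D4:**
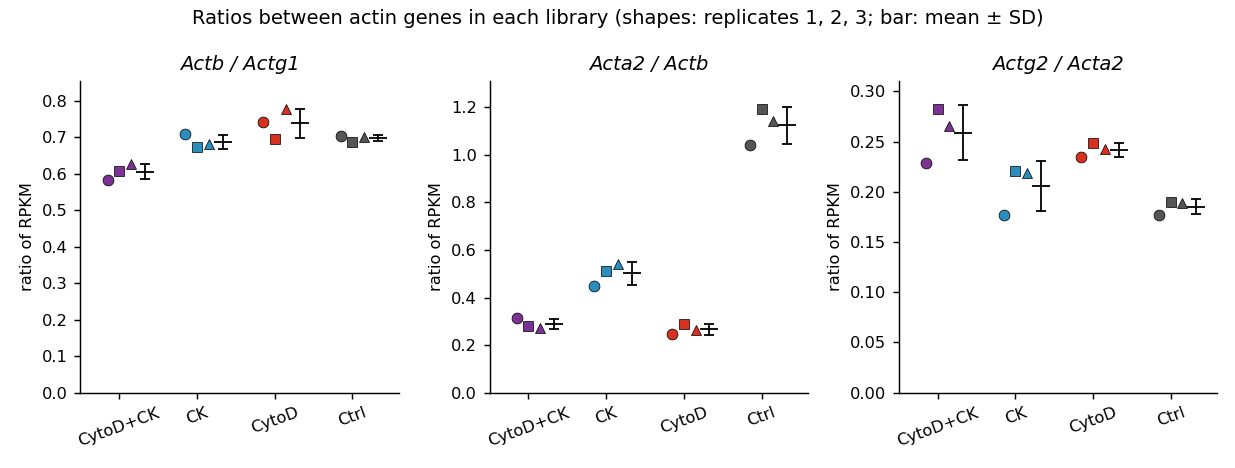
Ratios of RPKM between 2 actin genes within each library, on linear axes from 0. Shapes are replicates 1, 2 and 3 and bars the mean and SD (n = 3); Acta2 over Actb is 0.246 to 0.542 in treated libraries against 1.04 to 1.19 in Ctrl, and Actb over Actg1 is lowest in CytoD+CK.

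Since these genes are textbook targets of SRF, the 250 bases before each start site were searched for the CArG box, 2 C, 6 bases that are A or T, and 2 G, which reads the same way on both strands (RefSeq, GRCm38.p6). Of the members, Actg1, Acta2, Acta1 and Actc1 were matched in the table of promoters, and Actb and Actg2 were not. The complete element stood in 1.47% of 32851 promoters, and in 8.59% when 1 of the 6 inner bases was left free, a form added after the sequences were seen. Actg1, Acta1 and Actc1 each held 1 complete match. Matches that needed the freer form numbered 2 in Acta2, which also touch an annotated exon, 2 in Acta1 and 3 in Actc1. The stretches below show the complete matches, and for Acta2 the freer ones, in capitals, read along the gene's own strand.
Actg1, chr11:120348566-120348595, minus strand: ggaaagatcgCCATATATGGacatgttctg
Acta2, chr19:34255438-34255467, minus strand: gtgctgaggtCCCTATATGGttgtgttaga
Acta2, chr19:34255388-34255417, minus strand: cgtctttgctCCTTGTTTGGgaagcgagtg
Acta1, chr8:123894829-123894858, minus strand: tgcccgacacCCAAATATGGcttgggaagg
Actc1, chr2:114052903-114052932, minus strand: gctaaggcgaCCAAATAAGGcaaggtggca
A match describes these letters only and says nothing of whether SRF was bound in these cells.

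Genes of the SRF and MRTF pathway itself were counted next: 10 of 12 were tested, as Myocd and Abra were near 0. Of these, 6 were called, all lower, in CytoD+CK against Ctrl, 6 in CK and 4 in CytoD, also all lower. Of all tested genes, 46%, 41.1% and 37.9% were called in either direction in that order, and 21.6%, 18.7% and 18.9% were called lower. In CytoD the share called in either direction was near that of all genes, and the share called lower was above it. The median log2 change was -0.52, -0.39 and -0.19 in that order, against 0.04, 0.03 and 0.02 over all tested genes. Srf itself had 60.2 ± 1.76 CPM in CytoD+CK, 81.7 ± 19.1 CPM in CK, 66.6 ± 3.89 CPM in CytoD and 104 ± 4.54 CPM in Ctrl. It fell in CytoD+CK (log2 -0.79, adjusted p = 0.00030) and CytoD (-0.65, adjusted p = 0.0019). In CK it was -0.35 (adjusted p = 0.047), a call lost when any 1 of 10 libraries was left out and with the compared groups alone (adjusted p = 0.14). Mkl1, which encodes the coactivator MRTF-A, changed by -0.47 in CytoD+CK (adjusted p = 0.0011), -0.71 in CK (adjusted p = 7.3e-05) and -0.36 in CytoD (adjusted p = 0.0089). Phactr1, whose protein binds actin monomers through the same kind of motif as MRTF, had 2.45 ± 0.683 CPM in CytoD+CK, 2.04 ± 0.808 CPM in CK, 20.1 ± 2.21 CPM in CytoD and 15.5 ± 1.22 CPM in Ctrl. Fhl2, a LIM-domain cofactor of SRF, had a like pattern, with 133 ± 25.2 CPM in CytoD+CK, 150 ± 16.7 CPM in CK, 444 ± 20.5 CPM in CytoD and 453 ± 25.8 CPM in Ctrl. Both fell with CK666 in the medium (Phactr1 -2.67 in CytoD+CK and -2.95 in CK, Fhl2 -1.76 in CytoD+CK and -1.59 in CK, adjusted p at most 1.3e-06) and were not called in CytoD. Mical2, an enzyme that oxidises actin, had 211 ± 21.7 CPM in CytoD+CK, 183 ± 28.7 CPM in CK, 156 ± 6.09 CPM in CytoD and 329 ± 6.05 CPM in Ctrl, and was called lower in all 3 treated groups.

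The contractile partners of the smooth muscle actins were also mostly lower. Of 12, 9 were called lower in CytoD+CK against Ctrl, 9 in CK and 8 in CytoD, where 1 was called higher, beside 21.6%, 18.7% and 18.9% of all tested genes called lower in that order, with median log2 changes of -1.52, -1.07 and -1.15 in that order. Tagln (transgelin, an actin-bundling protein) had 66.3 ± 5.89 CPM in CytoD+CK, 99.1 ± 26.1 CPM in CK, 71.4 ± 0.329 CPM in CytoD and 314 ± 9.22 CPM in Ctrl. Lmod1, a nucleator of smooth muscle actin filaments, had 2.50 ± 0.314 CPM in CytoD+CK, 5.14 ± 1.20 CPM in CK, 5.36 ± 0.809 CPM in CytoD and 19.1 ± 0.545 CPM in Ctrl. Both were called in all 3 comparisons, as were Myl9, the regulatory light chain of myosin (-2.29 in CytoD+CK, -1.87 in CK and -1.43 in CytoD), and Cnn1, calponin (-2.11 in CytoD+CK, -2.04 in CK and -1.20 in CytoD). Mylk, the kinase that activates myosin through that light chain, split the treatments, with 169 ± 6.79 CPM in CytoD+CK, 168 ± 32.7 CPM in CK, 524 ± 27.4 CPM in CytoD and 573 ± 32.3 CPM in Ctrl. The gene called higher in CytoD was Des, the muscle intermediate filament protein desmin (0.43, adjusted p = 0.0058). Myh11 and Synpo2 of this list were near the floor. Myh11 averaged 0.440 CPM in CytoD+CK, 0.647 CPM in CK, 0.615 CPM in CytoD and 0.467 CPM in Ctrl. Synpo2 averaged 0.491, 0.479, 0.696 and 0.508 CPM in that order. Mylk, Des, Myh11 and Synpo2 lie outside the rule for named genes and were chosen after their values were seen.

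**Figure D5:**
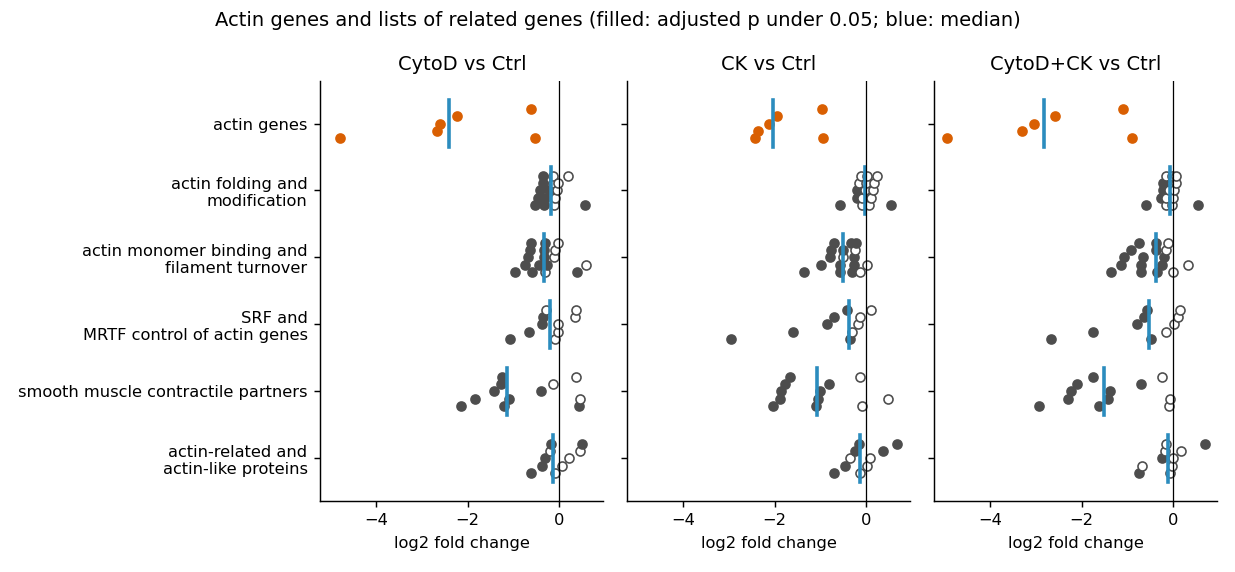
Log2 fold changes against Ctrl of the actin genes (orange) and of 5 lists of related genes (grey), 1 point per tested gene and 1 panel per treated group, with the median of each row as a blue line. Filled points have an edgeR adjusted p under 0.05; the actin genes and the smooth muscle contractile partners have the lowest medians in all 3 panels, and the lowest single point in the CK panel is Phactr1 of the SRF and MRTF list.

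Genes whose products bind actin monomers or turn filaments over were also mostly called lower. Of 17 tested, 13 were called lower in CytoD+CK, 13 in CK and 11 in CytoD, where 1 was called higher, beside 21.6%, 18.7% and 18.9% of all tested genes called lower in that order, with medians of -0.37, -0.50 and -0.33 in that order. Pfn1 (profilin, which loads monomers onto growing ends) fell by 0.75 on the log2 scale in CytoD+CK, 0.56 in CK and 0.60 in CytoD. Cfl1 (cofilin, which severs filaments) fell by 0.67 in CytoD+CK, 0.56 in CK and 0.63 in CytoD. Wdr1, a helper of cofilin, fell by 1.15 in CytoD+CK, 0.99 in CK and 0.96 in CytoD. The gene called higher in CytoD was Tmod3, a tropomodulin that caps the slow-growing ends of filaments (0.39, adjusted p = 0.011), chosen after its value was seen. Tmsb4x (thymosin β4, which sequesters monomers) had 330 CPM (318 to 346) in CytoD+CK, 329 ± 66.3 CPM in CK, 683 ± 16.1 CPM in CytoD and 842 ± 70.5 CPM in Ctrl. It was called in CytoD+CK (-1.35, adjusted p = 1.1e-06) and CK (-1.36, adjusted p = 2.0e-06). In CytoD it gave -0.30 (adjusted p = 0.056), and it passed the test there with DESeq2 (adjusted p = 0.037), with the compared groups alone (adjusted p = 0.00050), with a replicate block (adjusted p = 0.048) and without CK replicate 2 (adjusted p = 0.019), CK replicate 3 (adjusted p = 0.0019) or Ctrl replicate 2 (adjusted p = 0.047).

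Genes whose products fold or modify actin had smaller changes, at most 0.60 in size among those called. Of 16 tested, 1 was called higher and 4 lower in CytoD+CK, 1 and 3 in CK, and 1 and 8 in CytoD, beside 46%, 41.1% and 37.9% of all tested genes called in either direction in that order, with medians of -0.06, -0.02 and -0.17 in that order. Without CK replicate 3 the number called was 8 in CytoD+CK and 9 in CK, and without CytoD+CK replicate 2 or 3 it was 3 in CytoD+CK. Tcp1, a subunit of the chaperonin that folds new actin, had 284 ± 8.15 CPM in CytoD+CK, 305 ± 24.7 CPM in CK, 242 ± 10.4 CPM in CytoD and 331 ± 9.74 CPM in Ctrl, and it fell in CytoD (log2 -0.45, adjusted p = 0.00026). In CytoD+CK it gave -0.22 (adjusted p = 0.020), a call lost without Ctrl replicate 3 (adjusted p = 0.063), CytoD+CK replicate 2 (adjusted p = 0.069) or CytoD+CK replicate 3 (adjusted p = 0.065), and in CK it was called without CK replicate 3 (-0.23, adjusted p = 0.0040). Of the 8 subunits of the chaperonin, 7 were called lower in CytoD, with log2 changes of -0.45 to -0.21, and Cct4 was not. In CytoD+CK 2 were called lower, and in CK 2. Of all tested genes, 21.6% were called lower in CytoD+CK, 18.7% in CK and 18.9% in CytoD. The subunits as a subset lie outside the rule for named genes. Pdcl3, a cofactor of that chaperonin, fell by 0.60 in CytoD+CK, 0.56 in CK and 0.53 in CytoD. For the whole list, the shares called in either direction in CytoD+CK and CK lay below those of all genes. The gene called higher was Nat6, the older symbol of Naa80, which acetylates the mature amino end of actin: its log2 change was 0.54 in CytoD+CK, 0.55 in CK and 0.56 in CytoD. Setd3, which methylates a histidine of actin, had 137 ± 1.35 CPM in CytoD+CK, 131 ± 5.50 CPM in CK, 124 ± 1.55 CPM in CytoD and 131 ± 4.44 CPM in Ctrl and was not called.

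Of 14 actin-related and actin-like genes, 10 were tested. In this list 1 was called higher and 2 lower in CytoD+CK, 2 and 4 in CK, and 1 and 4 in CytoD, beside the same 46%, 41.1% and 37.9% of all tested genes called, with medians of -0.12, -0.14 and -0.14 in that order. With DESeq2 6 were called in CytoD+CK, and without CK replicate 3 this count was 5; in CK it was 3 without CK replicate 1 or Ctrl replicate 3. Actr3, a core subunit of the Arp2/3 complex, had 360 ± 39.3 CPM in CytoD+CK, 369 ± 46.6 CPM in CK, 394 ± 11.6 CPM in CytoD and 604 ± 23.1 CPM in Ctrl. Its log2 change was -0.75 in CytoD+CK (adjusted p = 3.2e-05), -0.71 in CK (adjusted p = 7.8e-05) and -0.62 in CytoD (adjusted p = 0.00027). Actr6, part of a chromatin remodelling complex in the nucleus, went up by 0.69 in CytoD+CK (adjusted p = 8.8e-05), 0.67 in CK (adjusted p = 0.00017) and 0.51 in CytoD (adjusted p = 0.0014).

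Over the 12 libraries, the smooth muscle members tracked each other, as did the cytoplasmic ones. As a description with no test, Pearson's r of log2 CPM was 0.992 between Acta2 and Actg2 and 0.971 between Actb and Actg1, and 0.691 between Actb and Acta1, the lowest of all pairs. The 12 points fall into the 4 treatment groups, which every r given here shares. Among 8812 genes with a mean of at least 10 CPM, the pattern of Acta2 was most like those of Basp1 (r = 0.997), Tpm1 (0.995), Csrp1 (0.992), Ctgf (0.991) and Tagln (0.991), and that of Actg2 most like those of Tagln (0.994), Itga5 (0.990) and Basp1 (0.988). The nearest to Actb were Cnn2 (0.986), Kctd11 (0.985) and Ehd4 (0.985), and to Actg1 Ehbp1l1 (0.992), Ppp1r18 (0.982) and Rac1 (0.981). Acta1 had an r of 0.944 with Acta2 and 0.927 with Actg2. Its nearest genes outside the family were different ones: Dut (0.986), Chaf1a (0.973), Pcna (0.973), Mcm2 (0.972) and Ttc9 (0.971). For Actc1 the highest r was 0.869.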

How the data were processed

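RNA-seq counts of 12 libraries in 4 groups of 3 were analysed. The deposited counts are whole numbers per gene, per the file headers, and the authors' RPKM columns in the same table were used only to check the shares. CASAVA 1.9, TopHat, HTSeq and hg19 are named per the submitters' processing notes. All counts were even, with 0 odd values, which was not explained in the sources used here, and halved counts were tried.

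Genes were filtered with filterByExpr (minimum count 10), scaled by TMM and fitted with edgeR 4.0.16 (R 4.3.3) as 1 mean per group over all libraries, with no covariates. Tests were 2-sided, with Benjamini-Hochberg adjustment over 13534 genes within each of 7 comparisons. The common biological coefficient of variation was 0.115. The step was also run on simulated data with 200 changed genes. That simulation used the same spread for every gene and changed no gene of low count, so it does not cover genes such as Actc1. Counting floors of 3 counts take each deposited count as a separate event, although all counts were even, and cover counting error only. Sequences were aligned with Biopython 1.88, and windows matched with blastn 2.17.0.

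The members, gene lists and rule for named genes were chosen with earlier results of these data known. The rule took the 6 actins, up to 3 called members per list and comparison with the largest change whose groups did not overlap, 9 set genes, and the 5 most correlated genes. Alternatives were RLE scaling, DESeq2 1.42.0, no filter, a minimum count of 50, the compared groups alone, a replicate block, halved counts, summed pairs, other share scales and leaving out each library; RLE-scaled levels were added after seeing the data. No source says that replicate numbers pair the libraries, and not every same-numbered pair deviated together, so the block is an alternative.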

Additional observations from a re-analysis of the deposited data

Results flagged for a closer look

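For 5 members the change with CytoD differed with and without CK666 in the medium, by edgeR's test of the difference itself. The difference on the log2 scale was 1.68 for Acta2 (adjusted p = 7.6e-05), 1.60 for Actg2 (adjusted p = 0.00054), 0.66 for Actg1 (adjusted p = 0.0038), 2.21 for Acta1 (adjusted p = 0.013) and 0.40 for Actb (adjusted p = 0.041). All were positive, and in CytoD+CK against CK Acta2, Actg2 and Acta1 were called lower while Actg1 (0.05) and Actb (-0.14) were not called. The sign of each difference was kept when any 1 library was left out, but the call for Actb was lost in 10 of 12 such fits (adjusted p up to 0.11) and that for Acta1 without CytoD+CK replicate 3 (adjusted p = 0.052). Acta1 had at most 26 counts in any library of CytoD+CK or CytoD, and the part of these low counts in its difference was not tested. Single genes were not searched for outlying libraries, as each group has 3.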

How the results depend on the processing

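The interaction was called for 1935 genes, and for 3396 without CK replicate 3, 1112 and 1114 without Ctrl replicates 2 and 3, and 1094 and 1115 without CytoD replicates 2 and 3. CytoD+CK against CK gave 1570 calls, and 2563 without CK replicate 2, 778 without CytoD+CK replicate 2 and 745 without CytoD+CK replicate 3. Fitting the compared groups alone gave 459 calls in CytoD+CK against CK and 3558 in CK against CytoD. It also gave -2.44 for Actc1 in CK against Ctrl, -0.63 for Actg2 in CytoD+CK against CK and -0.37 for Actg2 in CytoD+CK against CytoD, and list counts of 2 (folding, CK), 8 (folding, CytoD+CK), 7 (SRF and MRTF, CytoD, 2 higher and 5 lower) and 6 (actin-related, CytoD+CK). DESeq2 gave -0.38 for Actg2 in CytoD+CK against CytoD and 6 calls in the actin-related list in CytoD+CK. Replacing a row by the sum of its pair gave -0.024 for Actg1 in CytoD+CK against CK, -0.43 for Actg2 in CytoD+CK against CytoD, 0.46 for Actg2 in CK against CytoD, and for Actc1 -2.37 in CytoD+CK against CK, 2.10 in CK against CytoD and 2.11 for the interaction, values carried by the more abundant Acta1. Without division by length the shares were 27.4% for Actb in Ctrl, 55.6% in CytoD+CK, 48.6% in CK and 39.4% in Ctrl for Actg1, 1.74% in CytoD+CK, 2.40% in CK, 1.69% in CytoD and 3.98% in Ctrl for Actg2, and 0.0921% for Acta1 in Ctrl.

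Leaving out each library gave these ranges where a call or sign changed. In CytoD+CK against CytoD they were -0.52 to 0.065 for Acta1, -0.54 to -0.37 for Acta2, -0.999 to 0.083 for Actc1, -0.34 to -0.22 for Actg1 and -0.40 to -0.30 for Actg2. In CytoD+CK against CK they were -0.020 to 0.15 for Actg1 and -0.82 to -0.41 for Actg2. In CK against CytoD they were -0.14 to 0.94 for Actc1 and 0.043 to 0.46 for Actg2. Against Ctrl, Actc1 lay between -2.91 and -1.60 in CK and between -3.39 and -1.82 in CytoD. The interaction lay between 1.85 and 2.51 for Acta1 and between 0.35 and 0.50 for Actb. Setd3 lay between -0.079 and 0.025 in CK and between -0.00019 and 0.069 in CytoD+CK. The folding list had 3 to 9 calls in CK and 3 to 8 in CytoD+CK, and the actin-related list 3 to 6 and 2 to 5. Apart from the construction of summed pairs, the cause of these shifts was not tested.

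RLE scaling gave 2658 higher and 2878 lower calls in CK against Ctrl, with 3040 and 2525 under TMM, and 2670 and 2514 in CK against CytoD, with 3104 and 2276 under TMM; no actin call or sign changed. Of 18 correlations between the deviations of same-numbered libraries, 4 exceeded 0.1 (range -0.0789 to 0.256), and 8 of 12 libraries correlated best with their own number. Whether same-numbered libraries share an origin was not tested. With the replicate number as a block, 6299 genes were called in CytoD+CK, 5652 in CK and 5212 in CytoD against Ctrl, and the block changed no actin call. Of 313 values of actin genes under settings other than leaving out a library, 303 kept sign and side of the threshold. Depth limits Actc1, with single-digit counts in several libraries.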
